A study of Rattus norvegicus with 12 samples.

Results

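The response described here is the mean of 2 stroke contrasts in rat brain: occlusion of the middle cerebral artery (MCAO), which feeds much of the hemisphere, against its shams, and pontine infarction (a stroke of the pons, in the brainstem) against its own. The design keeps 1 mean per group, so the level of each site cancels and what is left is the change that stroke has on average over the hemisphere and the pons. It uses all 12 of the 12 libraries of the series, 6 from stroke and 6 from sham brains, and was fitted for 17008 of 37209 gene symbols, the 45.7% with enough counts. The animals of every group were Sprague Dawley rats at postnatal day 21, and the tissue is given as brain. The groups, with 3 libraries each, were MCAO, sham LN, pontine infarction and sham PN. Sham LN was set against MCAO and sham PN against pontine infarction because the first letters of their codes match, and no agent or allele is named for any group. For these libraries no dissected region and no time after stroke is named. The labels speak of 3 rats per stroke, and p-values here measure the spread between samples. Library values are given in the order 1, 2 and unnumbered for MCAO, whose last column carries a number found in no title, and in the order 1, 2 and 3 for the other groups.

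An ischaemic stroke starves tissue of oxygen and glucose. As background, dying cells release signals that microglia, the resident phagocytes of the brain, and astrocytes, its support cells, answer with cytokines and chemokines. These draw neutrophils and monocytes from the blood, astrocytes build intermediate filaments around the lesion, phagocytes clear debris, and oligodendrocytes, which wrap axons in myelin, are lost or damaged. The hemisphere and the pons differ in their neurons and in how much myelin they hold, and an average over both sites can pass on a change at a single site, so each site is given beside it.

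Libraries held 19805815 to 40400676 counts, of which 4.09% to 5.66% came from mitochondrial genes. Levels are CPM after scaling (counts relative to library size), log2 changes are given ± SE, and "passed" means an adjusted p under 0.05 in edgeR's quasi-likelihood test over all 17008 genes. Neuronal, astrocyte and myelin genes were present in all 12 libraries, with Snap25, a synaptic vesicle fusion protein, at 469 to 1547 CPM and Mbp, the major myelin basic protein, at 5166 to 38989 CPM. Hindbrain and Hox genes summed to 116 to 282 CPM in the pontine infarction and sham PN libraries and to 11.8 to 30.3 CPM in the MCAO and sham LN libraries. In tissue RNA of this kind, fewer cells of a type and less RNA per cell cannot be told apart.

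By edgeR with all libraries more transcripts rose than fell, and the risen ones moved further. On average over both sites 2653 genes rose (15.6% of those tested) and 2035 fell (12.0%), together 4688 genes or 27.6%. The median change of the risen genes was 1.38 on the log2 scale and that of the fallen genes -0.59, while the median over all tested genes was -0.05. At least 2-fold increases numbered 1695 (9.97% of tested genes), and at least 2-fold decreases 320 (1.88%). Changes of 16-fold or more were seen in 297 risen and 7 fallen genes. The balance of calls depended on the fit, with 2307 risen and 2293 fallen by limma voom, 3447 and 3300 by edgeR without MCAO 2, and 3412 and 3596 without MCAO 2 and pontine infarction 3 together, where more genes fell than rose.

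The average passed for many genes that a single site could not call. MCAO alone called 3163 genes (18.6%) and pontine infarction alone 694 (4.08%). Of the 2653 risen genes, 390 passed at both sites in the same direction (2.29% of tested genes), 1499 passed at MCAO only, 152 at pontine infarction only and 612 at neither. Of the 2035 fallen genes, these numbers were 55, 845, 84 and 1051. The median SE of the average was 0.187 on the log2 scale, against 0.266 for MCAO and 0.264 for pontine infarction. Stroke and sham libraries did not overlap at either site in 1423 of the risen genes (53.6%) and 1164 of the fallen (57.2%), against 8.61% and 7.88% of all tested genes. The calls and this separation come from the same libraries, so a higher share among called genes was built in and is no check on the calls. In 46 of the risen and 9 of the fallen genes the change had opposite signs at the sites. Leaving out 1 library at a time moved the number of average calls between 3178 and 6747, and 2727 of the 4688 genes (58.2%) passed in all 12 of these fits.

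**Figure D1:**
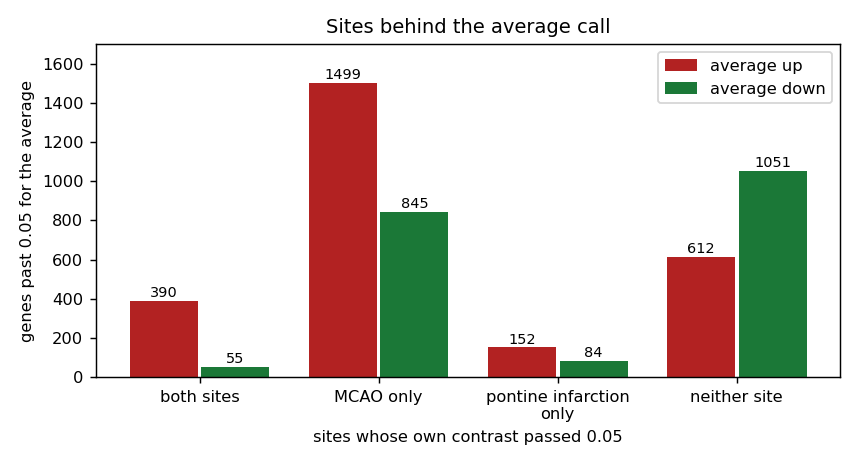
Number of genes (vertical axis) that passed for the average response, split by the sites whose own contrast passed (horizontal axis), with red bars for risen and green bars for fallen genes. Most risen genes passed also at MCAO (1499 there only, 390 at both sites), and most fallen genes passed at neither site (1051) or at MCAO only (845).

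The sites moved in the same direction at most called genes. The MCAO and pontine contrasts share no library, and each was read against the other, but both come from the same fit and filter on counts. A gene with almost no counts in the shams of both sites was tested only through its stroke libraries. Such a gene can hardly be lower after stroke at the other site. Part of the shares for risen genes was thus built in, and the shares of all tested genes are not matched for it. The size of that part was not tested. Of 2131 genes that rose after MCAO (12.5% of those tested), 90.6% were higher after pontine infarction than in sham PN, where 41.9% of all tested genes were higher. In 57.1% of them all 3 pontine infarction libraries lay above all 3 sham PN libraries, which was so for 13.3% of all tested genes, and in 2.63% all 3 lay below. Only 18.3% of the 2131 genes passed upward after pontine infarction. Of 1032 genes that fell after MCAO (6.07%), 92.3% were lower in the pons and 58.0% did not overlap downward, with backgrounds of 58.0% and 18.7%. Of these 1032 genes 5.33% passed downward in the pons. Read the other way, 98.7% of the 546 genes that rose after pontine infarction (3.21%) were higher after MCAO, where 49.7% of all tested genes were, and 71.4% of them passed there. Of 148 genes that fell after pontine infarction (0.870%), 91.2% were lower after MCAO and 37.2% passed. Across all tested genes the log2 changes at the sites had a Pearson r of 0.722 and a Spearman rho of 0.58, and r was 0.823 over the 12202 genes with at least 5 CPM in stroke or sham. Which genes a single site called depended on its libraries, and the number for pontine infarction also moved with libraries of the other site. The number for MCAO was 1426 without MCAO 1, 6170 without MCAO 2, 1517 without the unnumbered library, and 1136, 1544 and 1257 without sham LN 1, 2 and 3. The number for pontine infarction was 1416 without MCAO 2, 441 and 455 without sham LN 1 and 3, 431 and 310 without pontine infarction 1 and 3, and 182, 52 and 6 without sham PN 1, 2 and 3. The correlations are over genes, which are not independent replicates, and describe these 12 libraries.

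**Figure D2:**
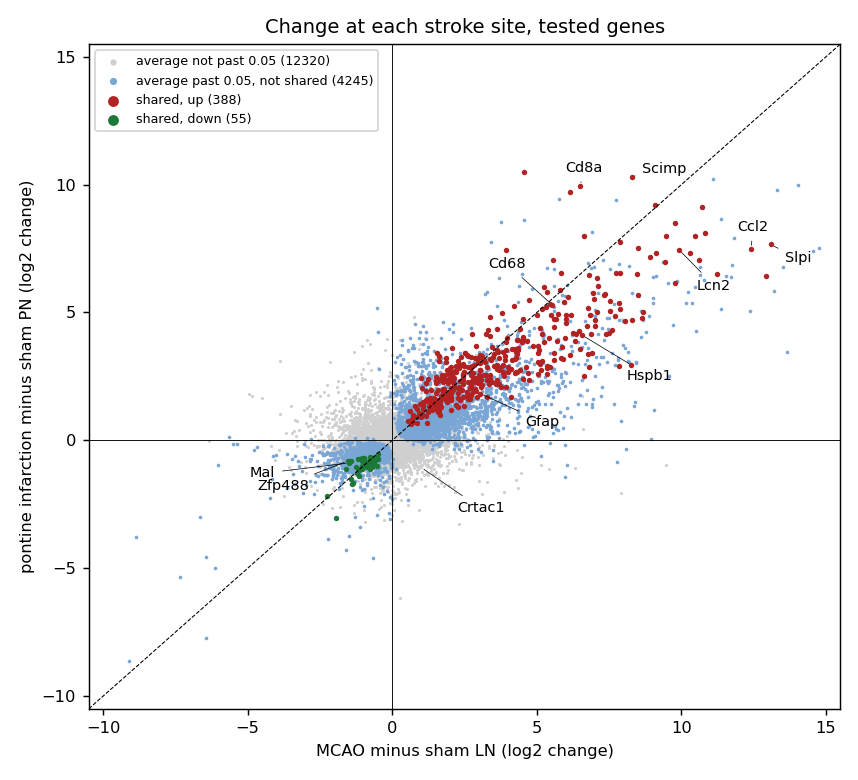
Log2 change after pontine infarction (vertical axis) against log2 change after MCAO (horizontal axis), 1 point per tested gene. Red points are the 388 genes that rose and green points the 55 that fell at both sites with stroke and sham libraries that do not overlap, and the dashed line marks equal change. Red points extend further from 0 than green points, and Crtac1 lies at the lower right.

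A stricter set holds the genes that moved at each site. A gene was called shared when it passed for the average and at each site in the same direction and its stroke libraries did not overlap its sham libraries at either site. There were 388 shared genes upward (2.28% of tested genes) and 55 downward (0.323%), and since the rule used these contrasts the values below describe them. Wherever a shared gene is shown, the separation of its stroke and sham libraries follows from this rule and is no added result. Their median log2 change upward was 2.97 on average, 3.13 after MCAO and 2.82 after pontine infarction. Downward it was -0.85, -0.82 and -0.83. Of the 388, 257 had the larger change after MCAO, and of the 55, 16 did. All 443 kept their average call whichever of the 12 libraries was left out. They were chosen for passing and for separation in these same libraries, so this is no independent check on them. The calls at both sites were less stable, and each rests on 3 libraries against 3. With all libraries 445 genes passed at both. The number was 1055 without MCAO 2, 236, 259 and 244 without sham LN 1, 2 and 3, 251 without pontine infarction 1, 225 without pontine infarction 3, and 135, 37 and 6 without sham PN 1, 2 and 3. Genes just inside the rule had pontine adjusted p-values close to 0.05, such as Edem1, which sends misfolded proteins to degradation (0.0482), and Cd74, the class II invariant chain, lay just outside it (0.0542).

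The 12 shared genes of largest average change with at least 5 CPM in stroke were Slpi, Ccl2, Mcemp1, Ccl7, Cxcr2, Scimp, Ccl3, Trem3, Trem1, Lilrb4, Atp8b4 and Ccl4. Ccl2, Ccl3, Ccl4 and Ccl7 are chemokines that draw monocytes and other leukocytes, Cxcr2 is the neutrophil receptor for CXC chemokines, Trem1 amplifies innate immune signals and Slpi inhibits neutrophil proteases. Most of them were at or near 0 in shams. Ccl3 was at 319, 68.7 and 80.4 CPM after MCAO against 0.263, 0 and 0 in sham LN, and at 53.6, 3.56 and 6.28 CPM after pontine infarction against 0.08597, 0.0756 and 0.0719 in sham PN. Every stroke library of Ccl3 lay above every sham library at its site, with the highest value in MCAO 1 (average log2 change 9.23 ± 1.03, edgeR adjusted p = 0.00033). Trem1 was at 73.4, 8.44 and 16.5 CPM after MCAO against 0.0263, 0.0741 and 0 in sham LN, and at 10.1, 1.36 and 7.81 CPM after pontine infarction against 0.04298, 0 and 0 in sham PN. With 3 counts over sham LN and 1 over sham PN, Trem1 was 1002-fold higher after MCAO (95% counting interval 342 to 4863) and 413-fold higher after pontine infarction (73.7 to 16326), intervals that cover counting error only. Scimp, an adaptor of antigen presenting cells, had 0 counts over sham PN and 445 after pontine infarction, which is at least 126-fold higher when the group total of the shams is set to a floor of 3 counts.

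The region before the start of some of these genes could be read from RefSeq promoters on GRCr8, an assembly newer than the Rnor_6.0 of the counts, so no coordinate here is one of the counted reads. Of the 388 shared risen genes 267 had a promoter in the table, of the 55 fallen 43, and of all tested genes 11778. In the 250 bases before the start, the AP-1 motif TGANTCA, read on both strands like all motifs here, was in 10.5% of the 267 promoters, in 4.65% of those of tested genes and in 6.36% of all 27457 distinct promoters. The interferon response element (GAAA, 2 free bases, GAAA) was in 7.87%, 2.62% and 3.29%. The heat shock element (GAA, 2 free bases, TTC, 2 free bases, GAA) was in 1.87%, 0.408% and 0.597%. The STAT motif TTCNNNGAA was in 7.87%, 5.9% and 7.52%, the NF-kB motif (GGG, 2 free bases, TTTCC) in 2.25%, 1.56% and 1.28%, the cyclic AMP element TGACGTCA in 2.25%, 2.79% and 1.7%, and the antioxidant element TGACNNNGC, whose first letters also begin the cyclic AMP element, in 8.99%, 12.4% and 10.2%. Of the 43 promoters of shared fallen genes, 4 (9.3%) held the AP-1 motif, 0 the interferon response element, 1 (2.33%) the heat shock element, 2 (4.65%) the STAT motif, 1 the NF-kB motif, 1 the cyclic AMP element and 6 the antioxidant element. For AP-1 and the heat shock element the fallen genes thus had shares near those of the risen genes. A match describes letters in a window and is not a binding site. Among the 12 genes named above, 8 had a promoter and only Ccl7 held a listed motif. It is shown with 3 shared risen genes chosen after their values were seen, Maff, a small Maf transcription factor, Il1rn, the antagonist of interleukin 1, and Aoah, an enzyme that detoxifies lipopolysaccharide. Each run is 250 bases 5′ to 3′ on the gene's strand up to the base before the start, with the matched motif in capitals.
Ccl7, AP-1, chr10:67513845-67514094, plus strand: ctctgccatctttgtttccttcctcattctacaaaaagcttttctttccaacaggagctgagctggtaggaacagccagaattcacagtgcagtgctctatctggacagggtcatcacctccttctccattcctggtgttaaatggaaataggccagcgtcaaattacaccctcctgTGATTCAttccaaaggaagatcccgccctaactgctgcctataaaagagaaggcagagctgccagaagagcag
Maff, cyclic AMP element, chr7:112792537-112792786, plus strand: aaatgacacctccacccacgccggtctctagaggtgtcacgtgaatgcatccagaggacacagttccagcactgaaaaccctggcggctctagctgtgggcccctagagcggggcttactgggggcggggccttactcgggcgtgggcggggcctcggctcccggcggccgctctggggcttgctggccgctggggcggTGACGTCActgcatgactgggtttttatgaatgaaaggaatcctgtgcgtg
Il1rn, NF-kB, chr3:27520072-27520321, plus strand: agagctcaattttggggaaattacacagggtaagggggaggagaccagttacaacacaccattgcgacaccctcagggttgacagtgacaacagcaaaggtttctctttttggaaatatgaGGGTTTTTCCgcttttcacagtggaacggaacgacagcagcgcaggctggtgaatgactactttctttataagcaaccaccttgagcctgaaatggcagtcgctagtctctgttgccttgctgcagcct
Aoah, interferon response element on the other strand, chr17:48745147-48745396, minus strand: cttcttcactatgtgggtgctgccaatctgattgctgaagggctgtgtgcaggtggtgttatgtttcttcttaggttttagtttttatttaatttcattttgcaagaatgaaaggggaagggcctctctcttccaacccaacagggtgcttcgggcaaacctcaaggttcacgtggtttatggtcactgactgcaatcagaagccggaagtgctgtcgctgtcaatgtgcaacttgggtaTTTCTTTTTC
The match lay 73 to 67 bases before the start in Ccl7, 51 to 44 in Maff, 129 to 120 in Il1rn and 10 to 1 in Aoah. Ccl7 was at 259, 5.38 and 105 CPM after MCAO against 0, 0 and 0.0382 in sham LN, and at 39.5, 3.37 and 9.57 CPM after pontine infarction against 0.344, 0.264 and 0 in sham PN. Il1rn was at 779, 92.2 and 237 CPM after MCAO against 1.92, 0.222 and 0.421 in sham LN, and at 71.2, 7.98 and 10.5 CPM after pontine infarction against 1.07, 1.06 and 1.11 in sham PN. Aoah was at 28.2, 3.75 and 17.5 CPM after MCAO against 0.07903, 0.111 and 0 in sham LN, and at 7.396, 1.33 and 1.53 CPM after pontine infarction against 0.129, 0.0756 and 0.0719 in sham PN. In all of these genes the stroke and sham libraries were apart at both sites, which the rule for shared genes requires. MCAO 2 was the lowest MCAO library.

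The gene lists below are read against all tested genes, of which 15.6% rose and 12.0% fell on average, with a median change of -0.05. A gene whose shams had too few counts was tested only through its stroke libraries and had to differ, so a list with shams near 0 is not measured by its share of risen genes. Of 23 tested cytokine and chemokine genes, 22 rose, 7 of them at both sites, with a median log2 change of 6.71 on average, 8.60 after MCAO and 4.77 after pontine infarction. Ccl5 was the one that did not pass, and Tnf and Csf2 of the list had too few counts. In 4 of the 23 a group was at 0 counts, and limma voom called 13 of the 23 and lost, among others, Ccl2, Ccl7, Ccl20 and Lif. Of 22 cytokine receptor and feedback genes, 20 rose, 7 of them at both sites, with a median of 2.51. Socs3, a feedback inhibitor of STAT signalling, was at 581, 114 and 494 CPM after MCAO against 2.03, 1.41 and 1.64 in sham LN, and at 199.6, 25.6 and 31.4 CPM after pontine infarction against 2.92, 1.96 and 1.401 in sham PN. All stroke libraries lay far above the shams, and MCAO 1 and the unnumbered MCAO library were highest (average log2 change 6.61 ± 0.67, edgeR adjusted p = 0.000208). Csf2rb, the receptor chain shared by GM-CSF, interleukin 3 and interleukin 5, was at 205, 41.3 and 155 CPM after MCAO against 1.001, 1.15 and 1.11 in sham LN, and at 136, 31.6 and 53.6 CPM after pontine infarction against 1.33, 1.59 and 1.11 in sham PN. All 6 stroke libraries were far above the 6 shams, which stayed below 2 CPM (average log2 change 6.36 ± 0.50, edgeR adjusted p = 6.93e-05).

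Markers of neutrophils and monocytes rose, and some of lymphocytes did. Of 13 tested neutrophil and monocyte markers, 12 rose and 1, Ly6g6e, did not pass, and 8 passed at both sites. Their median log2 change was 7.82, or 6.85 with the gene that has a group at 0 counts set to its bound. Only 13 of the 20 listed genes had enough counts, and a gene that reached them only in stroke had to differ, so the share is no measure of the list. The summed level of the 13 was 256 to 2715 CPM after MCAO and 183 to 1099 CPM after pontine infarction, against 33.1 to 44.2 CPM in the 6 shams. Of 9 tested lymphocyte markers, Cd2, Cd8a, Cd8b and Il2rb rose and 5 did not pass, among them Cd3e, a T cell receptor subunit, and Cd4. In the MCAO contrast alone, 1 marker of this list fell. The summed level of the 9 overlapped at that site, with 20.2 to 28.9 CPM after MCAO against 22.03 to 29.3 CPM in sham LN. It was higher after pontine infarction, at 30.3 to 124 CPM against 15.9 to 18.4 CPM in sham PN. Without MCAO 2, where 11 markers of the list had enough counts, 7 rose. Cd8a, a co-receptor of cytotoxic T cells, was at 3.27, 1.33 and 2.56 CPM after MCAO against 0.0263, 0.0371 and 0 in sham LN, and at 13.2, 2.9004 and 73.2 CPM after pontine infarction against 0, 0 and 0.0719 in sham PN. It was highest in pontine infarction 3, and its shams had 2 counts over each group. Against them it was 109-fold higher after MCAO (95% counting interval 29.7 to 910.2) and 1008-fold after pontine infarction (279 to 8327).

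Phagocyte activation genes rose on average, most of them at both sites. Of 25 genes, 22 rose, 17 of them at both sites, with a median log2 change of 3.54 on average, 3.94 after MCAO and 2.91 after pontine infarction. Trem2, Apoe and Lpl did not pass, and without pontine infarction 3, 1 gene of the list fell. Itgax, which encodes the integrin CD11c, was at 22.6, 11.7 and 16.3 CPM after MCAO against 0.158, 0.148 and 0.0382 in sham LN, and at 13.6, 13.1 and 21.6 CPM after pontine infarction against 0.172, 0.227 and 0.1797 in sham PN. The 6 stroke libraries were close to one another and far from the shams (average log2 change 6.72 ± 0.31, edgeR adjusted p = 1.53e-06). Cd68, a lysosomal protein of macrophages, was at 118, 6.42 and 35.5 CPM after MCAO against 1.48, 1.04 and 0.918 in sham LN, and at 40.5, 22.2 and 124 CPM after pontine infarction against 2.06, 1.36 and 1.29 in sham PN. Its site changes were nearly equal, log2 changes of 5.52 ± 0.99 after MCAO and 5.31 ± 0.98 after pontine infarction, although MCAO 2 was much lower than the other stroke libraries (average log2 change 5.41 ± 0.70, edgeR adjusted p = 0.000528). Clec7a, a pattern receptor for glucans, was at 33.2, 17.5 and 20.8 CPM after MCAO against 0.0263, 0.0371 and 0.0765 in sham LN, and at 11.1, 9.33 and 42.7 CPM after pontine infarction against 0.04298, 0.0756 and 0.287 in sham PN. Its groups were widely separated at both sites (average log2 change 8.06 ± 0.59, edgeR adjusted p = 4.53e-05). Resting microglia markers did not move as a group. Of 12 genes, Aif1, Csf1r and Siglech rose and 9 did not pass, a share near that of all tested genes, and the list's medians were -0.61 after MCAO and 0.50 after pontine infarction. Aif1, the protein Iba1 of microglia and macrophages, was at 28.9, 11.2 and 11.1 CPM after MCAO against 8.404, 6.63 and 6.58 in sham LN, and at 22.9, 23.1 and 54.3 CPM after pontine infarction against 8.25, 7.67 and 5.82 in sham PN. It rose on average (average log2 change 1.72 ± 0.30, edgeR adjusted p = 0.00238), with all stroke libraries above their shams. Csf1r, the receptor for macrophage growth factor, rose (average log2 change 0.84 ± 0.24, edgeR adjusted p = 0.0259) and lost its call without MCAO 1, sham LN 1, sham LN 3, sham PN 1 or sham PN 2. Tmem119, a surface protein of resting microglia, had a log2 change of -0.95 ± 0.40 and an edgeR adjusted p of 0.0984. It passed without MCAO 2, by limma voom and by DESeq2. Without MCAO 2 also 3 resting microglia genes fell, by limma voom 2 and by DESeq2 1.

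Complement and antigen presentation genes followed. Of 17 complement genes, 15 rose and C4a and C4b did not pass, with a median log2 change of 2.68 and 7 genes past the threshold at both sites. The count of risen genes was 15 in all 12 fits with 1 library left out. C5ar1, the receptor for the complement fragment C5a, was at 56.3, 8.88 and 19.98 CPM after MCAO against 1.82, 1.705 and 0.688 in sham LN, and at 23.2, 11.8 and 43.8 CPM after pontine infarction against 1.68, 1.66 and 1.797 in sham PN. Stroke and sham libraries did not overlap (average log2 change 4.13 ± 0.49, edgeR adjusted p = 0.000409). C3, the central complement protein, had an average log2 change of 4.70 ± 0.81 and passed for the average (edgeR adjusted p = 0.00224) and after MCAO, but not after pontine infarction (edgeR adjusted p = 0.0575). Of 18 antigen presentation genes, 17 rose, and 5 passed at both sites: Cd80, Ciita, RT1-Da, RT1-DMa and RT1-DMb. Their median log2 change was 3.11. RT1-Da, a class II chain, was at 47.2, 5.92 and 20.6 CPM after MCAO against 0.738, 0.593 and 0.459 in sham LN, and at 9.396, 11.6 and 42.5 CPM after pontine infarction against 2.67, 2.76 and 3.59 in sham PN. Pontine infarction 1 and 2 lay only a few fold above their shams (average log2 change 4.07 ± 0.54, edgeR adjusted p = 0.000632). RT1 genes are a family of close copies, so reads could be split between them.

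All 24 tested interferon-stimulated genes rose on average, while 17 passed after MCAO and 4 after pontine infarction. The list's medians were close to each other, 2.21 on average, 2.12 after MCAO and 2.18 after pontine infarction. With 1 library left out 19 to 24 of them passed, and by limma voom 14 did. The 4 genes past the threshold at both sites were Bst2, Ifi35, Ifit3 and Mx1. Ifit3, an interferon-induced inhibitor of translation, was at 80.4, 34.2 and 107 CPM after MCAO against 1.71, 0.889 and 0.994 in sham LN, and at 29.3, 2.78 and 10.5 CPM after pontine infarction against 2.32, 1.36 and 0.9702 in sham PN. Pontine infarction 2 was the lowest stroke library and still above its shams (average log2 change 4.56 ± 0.55, edgeR adjusted p = 0.000427). Cxcl10, a chemokine induced by interferon, was at 15.3, 0.839 and 56.1 CPM after MCAO against 0.316, 0.0741 and 0.0765 in sham LN, and at 101, 2.01 and 10.5 CPM after pontine infarction against 1.07, 0.756 and 0.287 in sham PN. It rose on average (average log2 change 6.43 ± 1.20, edgeR adjusted p = 0.00338), and limma voom did not call it (log2 change 4.97, adjusted p = 0.132).

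**Figure D3:**
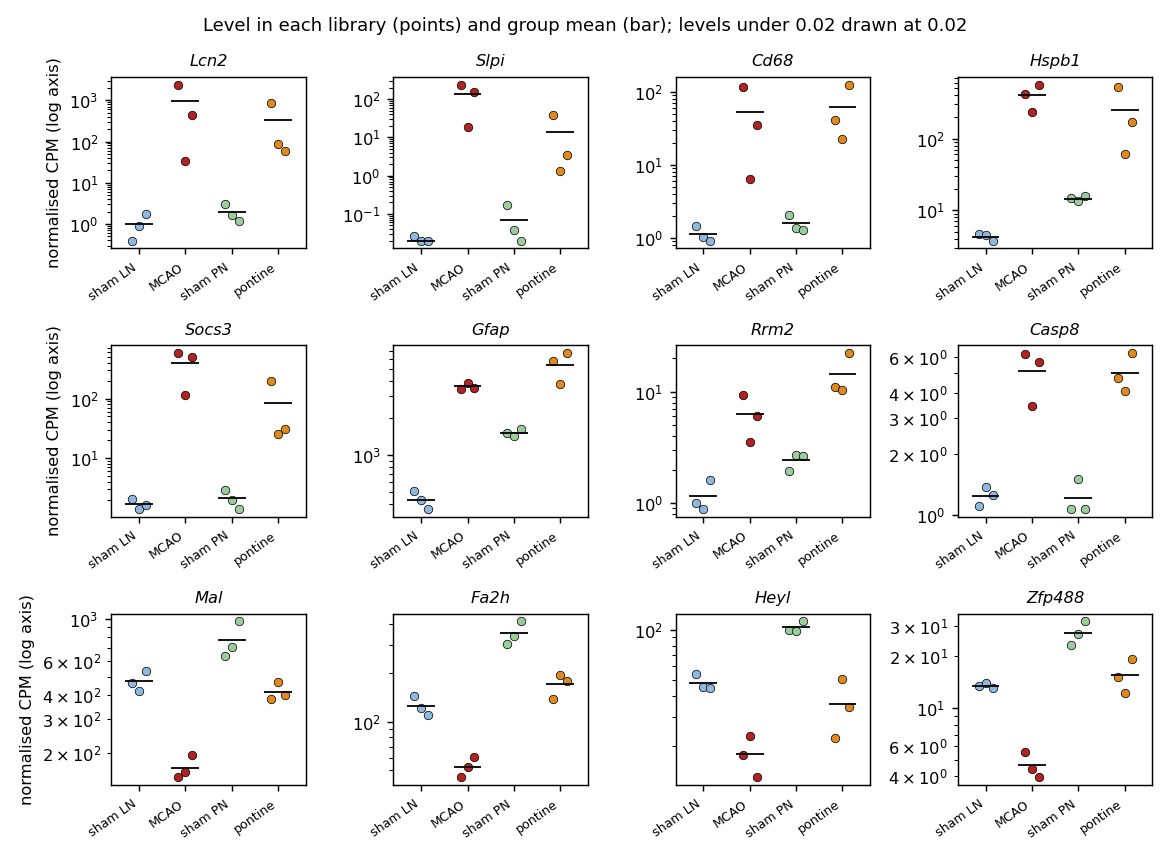
Normalised CPM (log axis) of 12 named genes in each library, with points for libraries, bars for group means and levels under 0.02 CPM drawn at 0.02. In the 8 genes that rose every stroke point lies above the shams of its site, and in Mal, Fa2h, Heyl and Zfp488 every stroke point lies below them. For shared genes the rule that chose them requires this separation.

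Astrocyte genes moved both ways, with reactive markers up and most resting markers down. Of 23 reactive astrocyte genes, 21 rose, 11 of them at both sites, and Slc10a6 and Synm did not pass. The count was 21 in all 12 fits with a library left out. The list's median log2 change was 2.96, with 3.71 after MCAO and 2.35 after pontine infarction. Gfap, the intermediate filament of astrocytes, was at 3433, 3843 and 3505 CPM after MCAO against 507, 429 and 366 in sham LN, and at 5733, 3762 and 6684 CPM after pontine infarction against 1514, 1422 and 1623 in sham PN. The 3 MCAO libraries were close to one another, and no stroke library came near a sham of its site (average log2 change 2.44 ± 0.15, edgeR adjusted p = 1.13e-05). Lcn2, an iron-binding acute phase protein, was at 2359, 32.8 and 427 CPM after MCAO against 0.395, 0.889 and 1.72 in sham LN, and at 871, 88.04 and 57.9 CPM after pontine infarction against 3.05, 1.66 and 1.15 in sham PN. Its range over the stroke libraries was wide, with MCAO 1 and pontine infarction 1 highest (average log2 change 8.68 ± 1.21, edgeR adjusted p = 0.00077). Vim, another intermediate filament, rose with log2 changes of 3.27 ± 0.51 after MCAO and 2.35 ± 0.49 after pontine infarction. Of 18 markers of resting astrocytes, 12 fell, Glul, the glutamine synthetase, rose and 5 did not pass, at a median of -0.60. The number that fell was 8 to 16 with 1 library left out. Fgfr3, a growth factor receptor of astrocytes, was the 1 gene of the list that fell at both sites, with log2 changes of -0.61 ± 0.15 after MCAO and -0.75 ± 0.15 after pontine infarction. Gjb6, a gap junction protein, was at 3.46, 18.3 and 5.13 CPM after MCAO against 48.4, 51.5 and 41.8 in sham LN, and at 40.2, 54.8 and 65.5 CPM after pontine infarction against 78.96, 74.2 and 85.8 in sham PN. MCAO 1 and the unnumbered MCAO library were lowest, and all stroke libraries were below their shams (average log2 change -1.49 ± 0.33, edgeR adjusted p = 0.00774). Aqp4, the water channel of astrocyte endfeet, did not pass (average log2 change -0.38 ± 0.18, edgeR adjusted p = 0.135), and passed without MCAO 2.

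Myelin genes fell on average, by less than the immune genes rose. Of 18 myelin and oligodendrocyte genes, 15 fell and Cldn11, Myrf and Tmem125 did not pass, at a median log2 change of -0.87 on average, -1.07 after MCAO and -0.69 after pontine infarction. The count was 14 or 15 whichever library was left out. Fa2h, Mal, Mog and Ugt8 passed at both sites. Mal, a protein of myelin membranes, was at 151, 159 and 196 CPM after MCAO against 462, 424 and 533 in sham LN, and at 382, 470.4 and 402 CPM after pontine infarction against 637, 712 and 967 in sham PN. Its groups were apart at both sites (average log2 change -1.19 ± 0.13, edgeR adjusted p = 0.000297). Fa2h, which hydroxylates the fatty acids of myelin lipids, was at 45.4, 52.3 and 60.5 CPM after MCAO against 144, 121 and 109 in sham LN, and at 138, 193 and 179.6 CPM after pontine infarction against 301, 337 and 418 in sham PN. The stroke values were again below every sham of the site (average log2 change -1.14 ± 0.13, edgeR adjusted p = 0.000328). Mbp, though abundant, was at 8190.1, 5166 and 8328 CPM after MCAO against 15035, 10842 and 10149 in sham LN, and at 20990.1, 19180.2 and 21949 CPM after pontine infarction against 30732, 30435 and 38989 in sham PN and fell on average (average log2 change -0.71 ± 0.17, edgeR adjusted p = 0.0112), while neither site passed. Opalin, a membrane protein of oligodendrocytes, had an average log2 change of -1.20 ± 0.25. The summed level of the list was lower after both strokes, 8126 to 12559 CPM after MCAO against 16329 to 23013 in sham LN, and 29475 to 31372 CPM after pontine infarction against 45292 to 56060 in sham PN.

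Precursors of oligodendrocytes showed mixed changes. Of 16 genes, Enpp6, Gpr17, Olig1, Olig2 and Tnr fell, Vcan rose and 10 did not pass. Olig2 and Enpp6 passed at both sites. Enpp6, a phosphodiesterase of newly forming oligodendrocytes, was at 6.16, 5.33 and 7.98 CPM after MCAO against 16.9, 10.97 and 12.2 in sham LN, and at 17.1, 17.1 and 10.2 CPM after pontine infarction against 37.1, 28.7 and 29.8 in sham PN. Both groups lay below their shams (average log2 change -1.07 ± 0.18, edgeR adjusted p = 0.00194). Gpr17, a receptor of precursors that are about to mature, was at 12.6, 48.1 and 11.4 CPM after MCAO against 101, 108 and 92.3 in sham LN, and at 41.4, 54.4 and 32.5 CPM after pontine infarction against 87.4, 115 and 126 in sham PN. It fell on average (average log2 change -1.71 ± 0.32, edgeR adjusted p = 0.00357) but passed at MCAO alone. Vcan, the proteoglycan versican, rose (average log2 change 1.60 ± 0.38, edgeR adjusted p = 0.0112), with 230.5, 42.4 and 205 CPM after MCAO against 32.03, 30.2 and 30.03 in sham LN, and 118, 38.9 and 43.4 CPM after pontine infarction against 37.96, 36.2 and 39.3 in sham PN. MCAO 1 and the unnumbered MCAO library were highest, and pontine infarction 2 was within the range of sham PN.

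Among the 12 shared fallen genes of largest change with at least 5 CPM in shams were Heyl, Prr18, Rbpjl, Tlcd1, Mal, Zfp488, Fa2h, Paqr6, Kif26a and Enpp6. Zfp488 is a transcriptional regulator of oligodendrocytes and Heyl a target of Notch signalling. Zfp488 was at 5.53, 4.39 and 3.97 CPM after MCAO against 13.5, 13.97 and 13.1 in sham LN, and at 15.3, 12.3 and 19.4 CPM after pontine infarction against 23.3, 27.1 and 32.02 in sham PN. Stroke libraries were below shams at both sites (average log2 change -1.18 ± 0.15, edgeR adjusted p = 0.000454), with log2 changes of -1.55 ± 0.21 after MCAO and -0.81 ± 0.20 after pontine infarction. Heyl was at 17.6, 22.8 and 13.01 CPM after MCAO against 53.98, 44.9 and 44.3 in sham LN, and at 22.4, 50.5 and 34.2 CPM after pontine infarction against 99.04, 98.3 and 112 in sham PN. Its fall was of like size at the sites, with log2 changes of -1.42 ± 0.27 after MCAO and -1.53 ± 0.27 after pontine infarction (average log2 change -1.48 ± 0.19, edgeR adjusted p = 0.000567).

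Sterol synthesis genes, which supply the cholesterol of cell membranes and myelin, fell on average. Of 19 cholesterol synthesis genes, 12 fell and 7 did not pass, at a median log2 change of -0.48, -0.12 after MCAO and -0.87 after pontine infarction. With the same sign, 3 passed after MCAO and 11 after pontine infarction, and Dhcr7, Fdft1 and Mvk passed at both. Mvk, mevalonate kinase, was at 17.6, 19.001 and 14.9 CPM after MCAO against 32.5, 31.4 and 28.8 in sham LN, and at 25.6, 29.7 and 33.3 CPM after pontine infarction against 44.96, 58.2 and 64.4 in sham PN. Its site changes were log2 changes of -0.85 ± 0.17 after MCAO and -0.92 ± 0.17 after pontine infarction (average log2 change -0.88 ± 0.12, edgeR adjusted p = 0.000657). Hmgcs1, the enzyme that starts the mevalonate pathway, was at 203, 326 and 389 CPM after MCAO against 392, 506 and 403 in sham LN, and at 255, 423 and 220.2 CPM after pontine infarction against 751, 813 and 569 in sham PN. It passed on average (average log2 change -0.88 ± 0.20, edgeR adjusted p = 0.00904), with sham LN 1 and the unnumbered MCAO library almost equal. Between 8 and 15 genes of the list fell with 1 library left out.

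DNA replication and mitosis genes rose on average. Of 24 genes, 23 rose and Tyms did not pass, with a median log2 change of 1.75, 1.02 after MCAO and 2.59 after pontine infarction. With the same sign, 7 passed after MCAO and 20 after pontine infarction, and Kif11, Mcm2, Mcm3, Mcm5, Mcm6 and Rrm2 passed at both. Rrm2, a subunit of ribonucleotide reductase, was at 9.38, 3.55 and 6.05 CPM after MCAO against 1.001, 0.889 and 1.61 in sham LN, and at 11.1, 10.4 and 22.2 CPM after pontine infarction against 1.93, 2.72 and 2.62 in sham PN. Its sites changed alike, with log2 changes of 2.44 ± 0.43 after MCAO and 2.58 ± 0.42 after pontine infarction, and libraries did not overlap (average log2 change 2.51 ± 0.30, edgeR adjusted p = 0.000408). Bub1b, a checkpoint kinase of mitosis, was at 2.89, 2.17 and 0.484 CPM after MCAO against 0.527, 0.371 and 0.803 in sham LN, and at 4.698, 7.602 and 13.01 CPM after pontine infarction against 0.731, 0.151 and 0.683 in sham PN. The unnumbered MCAO library was within the range of the shams (average log2 change 2.86 ± 0.49, edgeR adjusted p = 0.00229). Ccna2, the cyclin A of S phase, rose on average (average log2 change 2.41 ± 0.40, edgeR adjusted p = 0.00193), with log2 changes of 1.56 ± 0.56 after MCAO and 3.25 ± 0.58 after pontine infarction.

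Vessel and matrix genes were raised in part. Of 21 matrix and fibroblast genes, 14 rose, with Mmp3 and Mmp14, matrix proteases, past the threshold at both sites, and the median was 1.44. Without MCAO 1, 1 gene of the list fell. Of 17 vessel activation genes 10 rose, 3 of them at both sites, among them Plau and Plaur. Plau, the urokinase plasminogen activator, was at 20.4, 2.62 and 11.6 CPM after MCAO against 0.553, 0.408 and 0.306 in sham LN, and at 3.16, 8.91 and 67.1 CPM after pontine infarction against 0.473, 0.6801 and 0.611 in sham PN. Pontine infarction 3 was the highest library and MCAO 2 the lowest among stroke (average log2 change 5.10 ± 0.79, edgeR adjusted p = 0.00131). Of 19 endothelial and barrier genes, Cdh5, Egfl7, Slc16a1 and Slc2a1 rose, Abcg2 and Mfsd2a fell and 13 did not pass, shares near those of all tested genes. The number that fell was 1 without MCAO 1, the unnumbered MCAO library, sham LN 1, sham LN 2, sham LN 3, pontine infarction 1, sham PN 1 or sham PN 3 and 5 without MCAO 2, and 4 by limma voom. Cldn5, the main claudin of the barrier, did not pass (average log2 change -0.46 ± 0.22, edgeR adjusted p = 0.139), and passed without MCAO 2. Of 15 mural cell markers, Anpep, Cnn1, Des and Tagln rose, Abcc9, Notch3, Rgs5 and Vtn fell and 7 did not pass. The number that fell was 1 without MCAO 1, the unnumbered MCAO library, sham LN 3, sham PN 2 or sham PN 3, 0 without sham LN 1 and 2 without sham LN 2, pontine infarction 1 or sham PN 1. Anpep, which encodes aminopeptidase N, was at 175, 28.9 and 77.3 CPM after MCAO against 6.53, 5.003 and 4.82 in sham LN, and at 42.5, 27.5 and 96.5 CPM after pontine infarction against 8.34, 7.59 and 7.98 in sham PN. It passed at both sites (average log2 change 3.45 ± 0.43, edgeR adjusted p = 0.000462). Thbs1, thrombospondin 1, had log2 changes of 7.82 ± 1.10 after MCAO and 3.13 ± 0.90 after pontine infarction and an average adjusted p of 0.000528.

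Heat shock and chaperone genes rose in part. Of 18 genes, 10 rose and 8 did not pass, with a median log2 change of 0.57, and Hspa1a, Hspa1b and Hspb1 passed at both sites. The number that rose was 6 without sham LN 2 or sham PN 2. Hspa1a and Hspa1b encode nearly the same protein, and reads could be shared between them. Hspb1, a small heat shock protein, was at 418, 237 and 560.0 CPM after MCAO against 4.61, 4.52 and 3.79 in sham LN, and at 528, 60.7 and 171 CPM after pontine infarction against 14.7, 13.4 and 15.6 in sham PN. All stroke libraries lay well above the shams of their site, with pontine infarction 2 the nearest (average log2 change 5.34 ± 0.48, edgeR adjusted p = 0.000112). Of 20 genes of the unfolded protein and integrated stress response, 11 rose, at a median of 0.57 (without pontine infarction 2, 1 fell), and Atf3, Pdia4, Sdf2l1 and Trib3 passed at both sites. Sdf2l1, a chaperone partner of the endoplasmic reticulum, was at 20.6, 13.6 and 23.1 CPM after MCAO against 12.1, 9.56 and 11.6 in sham LN, and at 52.6, 33.9 and 54.4 CPM after pontine infarction against 15.8, 18.6 and 21.1 in sham PN. Its pontine change was the larger, with log2 changes of 0.79 ± 0.24 after MCAO and 1.34 ± 0.24 after pontine infarction (average log2 change 1.07 ± 0.17, edgeR adjusted p = 0.00148). Of 23 AP-1 and immediate early genes, 13 rose, Jund fell and 9 did not pass. Jund passed in 6 of the 12 fits with 1 library left out and did not pass without the unnumbered MCAO library, sham LN 1, sham LN 2, sham LN 3, sham PN 2 or sham PN 3. Atf3, a stress-induced transcription factor, was at 46.1, 6.61 and 31.1 CPM after MCAO against 0.5796, 0.334 and 0.0765 in sham LN, and at 16.8, 11.95 and 24.97 CPM after pontine infarction against 1.42, 0.831 and 1.37 in sham PN. Its shams were at or below 1.42 CPM and all stroke libraries above 6 (average log2 change 5.10 ± 0.52, edgeR adjusted p = 0.000208). Fos, an early response gene, was at 54.5, 28.03 and 290.0 CPM after MCAO against 16.5, 18.2 and 13.04 in sham LN, and at 44.8, 20.96 and 22.1 CPM after pontine infarction against 15.002, 16.3 and 16.2 in sham PN. It passed on average (average log2 change 1.92 ± 0.47, edgeR adjusted p = 0.0131), with the unnumbered MCAO library highest.

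Death, iron and redox genes moved upward in part. Of 24 cell death and p53 target genes, 18 rose, Sesn1 fell and 5 did not pass, at a median of 1.63. Sesn1 passed in 2 of the 12 fits, those without MCAO 2 and sham LN 2. Bcl2a1, Casp1, Casp4, Casp8 and Ripk3 passed at both sites. Casp8, which starts apoptosis from death receptors and restrains necroptosis, was at 6.25, 3.45 and 5.66 CPM after MCAO against 1.11, 1.37 and 1.26 in sham LN, and at 4.74, 4.07 and 6.28 CPM after pontine infarction against 1.07, 1.51 and 1.08 in sham PN. Its site changes were nearly equal, with log2 changes of 2.04 ± 0.31 after MCAO and 2.04 ± 0.31 after pontine infarction (average log2 change 2.04 ± 0.22, edgeR adjusted p = 0.0003). Ripk3, a kinase of necroptosis, was at 24.6, 6.96 and 21.4 CPM after MCAO against 0.738, 0.593 and 1.03 in sham LN, and at 18.3, 7.23 and 23.5 CPM after pontine infarction against 1.12, 0.605 and 1.62 in sham PN. All stroke libraries were well above the shams of their site (average log2 change 4.17 ± 0.42, edgeR adjusted p = 0.000208). Of 18 oxidative stress and metallothionein genes, 8 rose, Prdx6 fell and 9 did not pass. Hmox1, the enzyme that degrades heme, was at 642, 98.9 and 254 CPM after MCAO against 5.95, 5.56 and 5.89 in sham LN, and at 79.3, 50.9 and 186 CPM after pontine infarction against 9.93, 10.2 and 13.6 in sham PN. All stroke libraries were above their shams (average log2 change 4.53 ± 0.47, edgeR adjusted p = 0.000237). Mt2A, a metal-binding protein, was at 217, 19.001 and 131 CPM after MCAO against 14.1, 11.3 and 11.2 in sham LN, and at 315, 26.9 and 91.2 CPM after pontine infarction against 9.33, 6.88 and 5.79 in sham PN and also passed at both sites (average log2 change 3.81 ± 0.64, edgeR adjusted p = 0.00203). Of 18 iron handling genes 8 rose, with Cp and Lcn2 past the threshold at both sites. Of 20 hypoxia and glycolysis genes 7 rose, with Hk2, a hexokinase, and Slc16a3, a lactate exporter, at both. The list's median log2 change was 0.55 after MCAO and -0.05 after pontine infarction, and 10 and 2 of its genes rose in these contrasts. Slc16a3 was at 231, 37.9 and 71.4 CPM after MCAO against 1.05, 2.001 and 0.727 in sham LN, and at 36.7, 8.68 and 22.5 CPM after pontine infarction against 2.19, 1.66 and 1.904 in sham PN. Its libraries did not overlap (average log2 change 5.02 ± 0.53, edgeR adjusted p = 0.000256). Of 20 nuclear respiratory chain genes Ndufb8, Ndufv1 and Sdha fell, a share near that of all tested genes. The number was 1 without MCAO 1, sham LN 1, sham LN 2, sham PN 2 or sham PN 3 and 0 without pontine infarction 1. Of 13 mitochondrially encoded genes ATP8 fell (average log2 change -0.50 ± 0.12, edgeR adjusted p = 0.012), and the number was 3 without MCAO 2 or by DESeq2 and 2 without pontine infarction 2 or by limma voom.

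Regeneration and growth factor genes rose in part, with the larger medians after MCAO (log2 changes of 1.28 and 1.63, against 0.36 and 0.03 after pontine infarction). Of 22 axon regeneration-associated genes, 10 rose, Stmn4 fell and 11 did not pass, with Atf3 and Tubb6 past the threshold at both sites. Without MCAO 2, 5 of the list fell, without sham PN 1, 2 did, by DESeq2 3 and by limma voom 2. Sprr1a, a small proline-rich protein of regrowing axons, was at 93.2, 3.45 and 142 CPM after MCAO against 0.422, 0.964 and 0.612 in sham LN, and at 0.558, 1.45 and 0.972 CPM after pontine infarction against 0.473, 0.529 and 0.144 in sham PN. It passed on average (average log2 change 4.17 ± 0.75, edgeR adjusted p = 0.00283) but not by limma voom (adjusted p = 0.195), while the lowest pontine infarction library lay only just above the highest sham PN library and the pontine contrast did not pass (edgeR adjusted p = 0.482). Of 21 growth factor and TGF-beta genes, 7 rose, Bmp4 and Igfbp5 fell and 12 did not pass. The number that rose was 12 without MCAO 2, where 22 genes of the list were tested. The number that fell was 1 without MCAO 1, sham LN 1, sham LN 2, sham PN 1 or sham PN 3. Hbegf, an EGF receptor ligand, was at 90.9, 16.8 and 121 CPM after MCAO against 5.19, 5.596 and 4.17 in sham LN, and at 12.8, 7.88 and 13.3 CPM after pontine infarction against 3.91, 3.67 and 3.56 in sham PN. All stroke libraries lay above the shams (average log2 change 2.77 ± 0.38, edgeR adjusted p = 0.000757).

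Neuronal gene lists leaned downward by their medians, with calls that depended on single libraries. Median average log2 changes were -0.58 for excitatory, -0.14 for inhibitory, -0.44 for synaptic and -0.45 for channel genes, against -0.05 over all tested genes. Those of striatal and telencephalon genes were -0.68 and -0.67. Of the 15 inhibitory markers 6 were higher. The shares of excitatory and telencephalon genes that fell lay below the 12.0% of all tested genes. Of 17 excitatory neuron markers only Grin1, a glutamate receptor subunit, fell (average log2 change -0.58 ± 0.14, edgeR adjusted p = 0.0128), and the number was 8 without MCAO 2, 3 without pontine infarction 2 and 4 without pontine infarction 3, with 5 by DESeq2 and 3 by limma voom. Grin1 was at 399.6, 698 and 530.3 CPM after MCAO against 811, 912 and 733 in sham LN, and at 325, 341 and 273 CPM after pontine infarction against 394, 464 and 528 in sham PN. Slc17a7, the glutamate transporter of cortical vesicles, did not pass (average log2 change -0.78 ± 0.55, edgeR adjusted p = 0.308), and passed without pontine infarction 3. Of 15 inhibitory neuron markers, 4 fell, among them Calb2, Slc32a1 and Sst, and 2 genes rose without MCAO 2, 1 without sham LN 1 and 1 by DESeq2. Sst, the peptide somatostatin, was at 96.7, 136 and 118 CPM after MCAO against 166, 185 and 171 in sham LN, and at 63.03, 48.2 and 40.6 CPM after pontine infarction against 74.5, 82.3 and 120.3 in sham PN and its groups did not overlap at either site (average log2 change -0.72 ± 0.15, edgeR adjusted p = 0.0057). Of 19 synaptic genes 6 fell, and the number was 11 without MCAO 2, 3 without the unnumbered MCAO library or sham LN 3, 2 without sham LN 1 or sham LN 2 and 1 without sham PN 3. Snap25 did not pass (average log2 change -0.46 ± 0.16, edgeR adjusted p = 0.0504), and passed without MCAO 2, pontine infarction 1 or pontine infarction 2 and by limma voom. It also passed by DESeq2, with DESeq2's size factors, with a filter of 1 CPM in 3 libraries and with the replicate number as a block. Of 22 voltage-gated channel genes 6 fell, and the number was 3 without MCAO 1, sham LN 3 or sham PN 2, 13 without MCAO 2 and 2 without sham LN 1 or sham PN 3. Scn4b, a sodium channel subunit, was at 678, 834 and 455 CPM after MCAO against 1579, 766 and 1214 in sham LN, and at 158, 161 and 137 CPM after pontine infarction against 267, 267 and 311 in sham PN. Sham LN 2 lay below MCAO 2, and the pontine groups did not overlap (average log2 change -0.87 ± 0.18, edgeR adjusted p = 0.00644). Of 15 striatal projection neuron markers 8 fell, and the number was 4 without MCAO 1, pontine infarction 3, sham PN 1 or sham PN 2 and 3 without the unnumbered MCAO library, sham LN 1, sham LN 3 or sham PN 3. Their summed level was 646 to 662 CPM in sham PN against 6297 to 12319.6 CPM in sham LN, so the pontine contrast has little of these transcripts. Of 12 telencephalon genes Bcl11b fell, and the number was 0 without MCAO 1, the unnumbered MCAO library, sham LN 1, sham LN 3, sham PN 1, sham PN 2 or sham PN 3, 3 without MCAO 2 and 2 without pontine infarction 3, with 3 by DESeq2 and 2 by limma voom. The summed level of the telencephalon genes was 23.2 to 28.1 CPM in sham PN against 703 to 742 CPM in sham LN. The pontine contrast thus has little of these transcripts too.

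Markers of neighbouring tissue varied between libraries in ways that touch some average calls. Of 14 cerebellar markers Barhl2, Cbln1 and En2 rose on average, and their summed level was 1237 CPM in pontine infarction 3 against 103 to 250 CPM in the other pontine and sham PN libraries. En2, a transcription factor of the midbrain and cerebellum, was at 0.0962, 0.247 and 0.387 CPM after MCAO against 0, 0 and 0 in sham LN, and at 12.8, 10.2 and 30.4 CPM after pontine infarction against 11.4, 15.8 and 13.3 in sham PN. It passed at MCAO, where 15 counts stood against 0 in sham LN, and not in the pons (edgeR adjusted p = 0.621). By limma voom 1 gene of the list rose, without En2 and Cbln1. Without pontine infarction 1 the list had 5 risen genes, and without pontine infarction 3 it had 2 fallen ones. Of 12 choroid plexus markers Aqp1, Clic6, F5 and Lbp rose, and their summed level was 1300.4 CPM in MCAO 1 against 64.7 to 134 CPM in the other MCAO and sham LN libraries. The number that rose was 2 without MCAO 1, sham LN 1 or sham PN 3 and 7 without MCAO 2, and 2 by limma voom. Enpp2, which is also in the myelin list, fell, and without MCAO 1, 2 genes of the choroid plexus list fell. Lbp, which binds bacterial lipopolysaccharide, rose at both sites (average log2 change 5.60 ± 0.62, edgeR adjusted p = 0.000324). Of 14 ciliated ependyma markers Hydin fell (average log2 change -1.37 ± 0.36, edgeR adjusted p = 0.0166), with log2 changes of -2.80 ± 0.53 after MCAO and 0.06 ± 0.48 after pontine infarction, and without sham LN 2, 2 genes of the list fell. The log2 change of Hydin did not pass by limma voom (-1.26, adjusted p = 0.0639), with a minimum change of 1.5-fold, with 1 stroke effect for both sites or with site ignored. None of 11 hindbrain and Hox genes passed, though without MCAO 2, 1 rose. In 7 of the 11 a group was at 0 counts, so a missing average call says little here. In the contrasts of single sites 1 rose after MCAO and 1 fell after pontine infarction, where the list's median log2 change was -1.49. Of 4 red cell genes Hba2 rose, a call lost without MCAO 1, sham LN 3, pontine infarction 1, pontine infarction 3, sham PN 1, sham PN 2 or sham PN 3 and by limma voom, and without pontine infarction 2 or by DESeq2, 2 rose. Of 2 pituitary genes Pomc fell, and 1 gene rose without MCAO 2 or pontine infarction 1. The part of tissue composition in these calls was not tested.

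**Figure D4:**
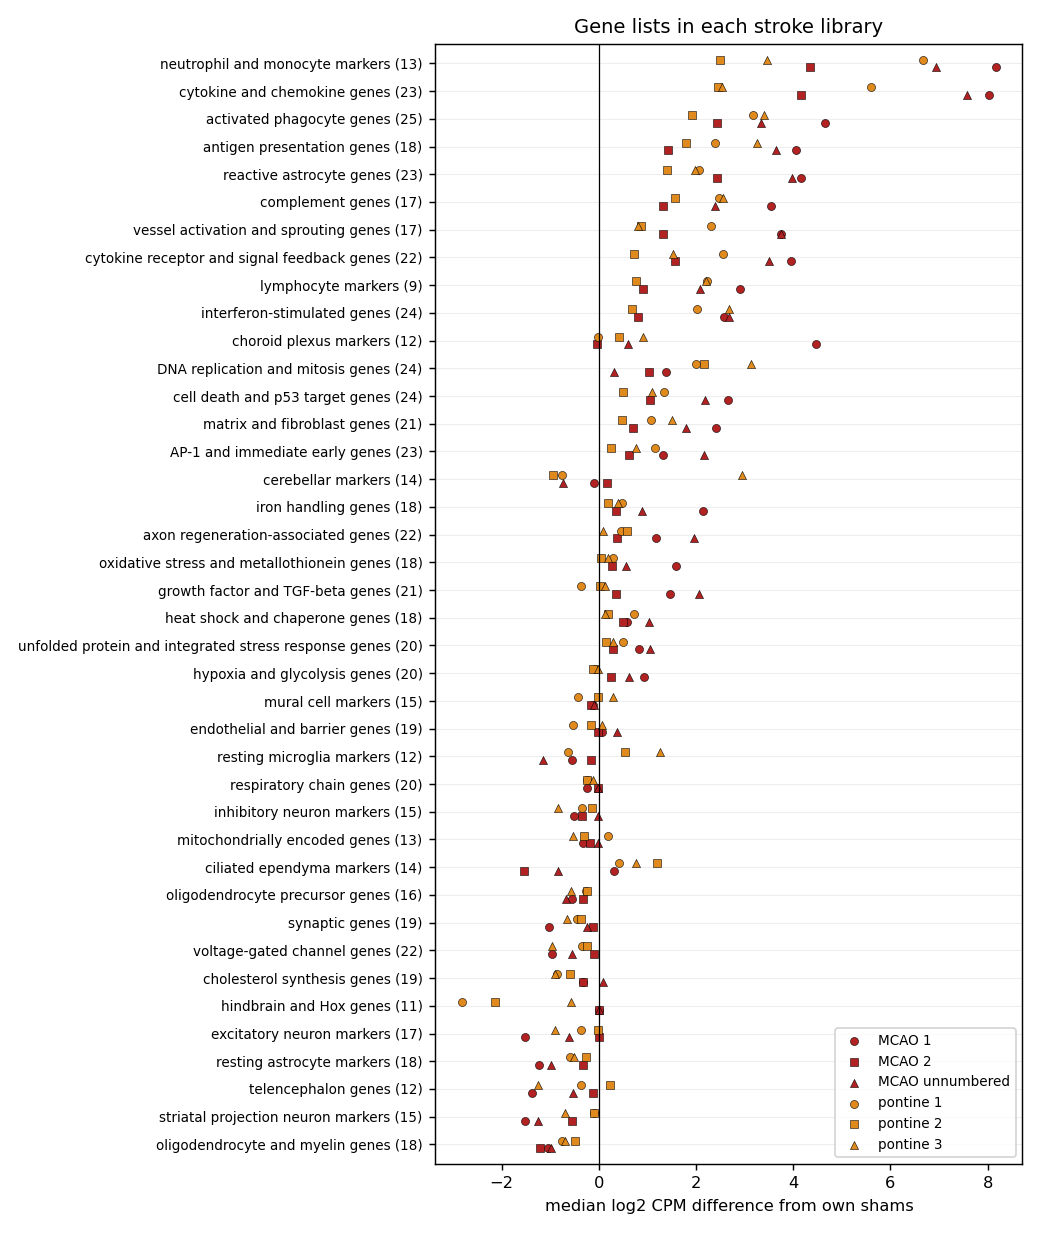
Median log2 difference of each stroke library from the mean of its own shams (horizontal axis), for each gene list with at least 9 tested genes (number in brackets), with red symbols for MCAO and orange for pontine infarction libraries. Reactive astrocyte, complement and cytokine lists lie right of 0 and myelin genes left of 0 in all 6 libraries, and choroid plexus markers in MCAO 1 and cerebellar markers in pontine infarction 3 stand apart from the other libraries.

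The stroke libraries differed in how far they lay from their shams. Over the 388 shared risen genes the median log2 difference from the shams was 3.68, 1.80 and 3.08 in the MCAO libraries and 2.76, 1.89 and 3.15 in the pontine infarction libraries. Over the 55 fallen genes it was -0.92, -0.71 and -0.87, and -0.97, -0.72 and -0.81. MCAO 2 and pontine infarction 2 were thus nearest to their shams in both directions. The range of a risen gene over the 6 libraries had a median of 2.47 on the log2 scale, and that of a fallen gene 0.62, which is 0.82 and 0.74 of its average change.

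Some genes passed only when both sites were joined. Among genes past the threshold on average, at neither site, and of 1 sign, the largest changes upward were Orm1, Ccl20, Angptl4, Aqp1 and Egr2, and downward Notum, Cml5, Nppc, Scube2 and Abcc6. Angptl4, an inhibitor of lipoprotein lipase, was at 185, 11.99 and 157 CPM after MCAO against 16.3, 14.6 and 13.8 in sham LN, and at 209.9, 14.3 and 43.99 CPM after pontine infarction against 16.1, 16.8 and 23.2 in sham PN. In MCAO 2 and pontine infarction 2 it was lower than in every sham of the site (average log2 change 2.62 ± 0.67, edgeR adjusted p = 0.0155). Egr2, an early response transcription factor, was at 8.47, 7.699 and 59.4 CPM after MCAO against 9.38, 12.1 and 12.6 in sham LN, and at 1.395, 1.15 and 4.34 CPM after pontine infarction against 0.04298, 0.302 and 0.0719 in sham PN. MCAO 1 and 2 were below all sham LN libraries, while the unnumbered MCAO library and all 3 pontine infarction libraries were above their shams (average log2 change 2.56 ± 0.65, edgeR adjusted p = 0.0146). Nppc, the C-type natriuretic peptide, was at 0.481, 0.987 and 1.26 CPM after MCAO against 1.69, 4.74 and 2.79 in sham LN, and at 2.14, 6.74 and 8.63 CPM after pontine infarction against 10.96, 18.4 and 24.3 in sham PN. Both stroke groups lay below their shams (average log2 change -1.68 ± 0.39, edgeR adjusted p = 0.0102). Scube2, a secreted cofactor of hedgehog signalling, was at 3.705, 2.12 and 2.81 CPM after MCAO against 10.9, 4.595 and 6.73 in sham LN, and at 1.49, 5.08 and 2.06 CPM after pontine infarction against 15.6, 4.38 and 13.7 in sham PN. Pontine infarction 2 was above the lowest sham PN library (average log2 change -1.66 ± 0.39, edgeR adjusted p = 0.0108). The average calls of Angptl4, Egr2, Nppc and Scube2 held in all 12 fits with 1 library left out, while the others lost theirs in some. Limma voom did not call Angptl4 (adjusted p = 0.107) or Egr2 (adjusted p = 0.139), nor Orm1, Ccl20 or Aqp1. Egr2 and Nppc did not pass with site ignored, nor Scube2 with a minimum change of 1.5-fold. Orm1 lost its call without sham LN 1, pontine infarction 1, sham PN 1, sham PN 2 or sham PN 3. Ccl20, a chemokine, lost it without sham PN 3, and Aqp1, a water channel of the choroid plexus, without MCAO 1, sham LN 1, sham LN 3, pontine infarction 3, sham PN 1, sham PN 2 or sham PN 3. Notum, a secreted inhibitor of Wnt ligands, lost it without MCAO 1, the unnumbered MCAO library, sham LN 1, sham LN 2, sham LN 3, pontine infarction 3, sham PN 1, sham PN 2 or sham PN 3. Cml5 lost it without MCAO 1, the unnumbered MCAO library, sham LN 1, sham LN 2, sham LN 3, pontine infarction 1, pontine infarction 3, sham PN 1, sham PN 2 or sham PN 3, and Abcc6, a transporter, without MCAO 1, the unnumbered MCAO library, sham LN 1, sham LN 2, sham PN 2 or sham PN 3. Orm1, an acute phase glycoprotein, was at 337 CPM in MCAO 1 and 28.8 CPM in pontine infarction 1 but at or below 1.45 CPM in the other 4 stroke libraries.

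The test of the difference between the site responses called no gene. The count was 0 of 17008 by edgeR (smallest adjusted p of 0.1), 1826 genes had an unadjusted p under 0.05, DESeq2 called 238 and limma voom 0. Without MCAO 2 edgeR called 970 and without the unnumbered MCAO library 1. The median SE of a difference was 0.374 against 0.187 for the average, so a missing call does not show equal responses. Of the 443 shared genes, 390 had a 95% interval of the difference that included 0, and in 66 the interval lay within 1 log2 unit of 0. Genes of most even response, with an average change of at least 1 log2 unit, were Pf4, Casp8, Edem1, Kif26a, Tgif1 and Cmklr1, which the rule chose for small differences. The difference of Casp8 had an interval of -0.97 to 0.97, and that of Edem1 one of -0.78 to 0.80. Kif26a, a kinesin family member, was at 13.8, 22.9 and 13.98 CPM after MCAO against 41.1, 37.1 and 31.1 in sham LN, and at 16.2, 22.1 and 18.4 CPM after pontine infarction against 40.02, 40.8 and 42.7 in sham PN. Its interval was -0.64 to 0.66. Intervals were wider for Pf4, platelet factor 4, and Cmklr1, the chemerin receptor, at -2.08 to 2.08 and -1.77 to 1.82. By contrast, the interval for Spp1, which encodes osteopontin, ran from 2.70 to 7.14, and that for Gfap from 0.55 to 1.90, though neither difference passed (edgeR adjusted p = 0.198 and 0.261). Spp1 was at 77.3, 104 and 314 CPM after MCAO against 0.7903, 0.889 and 0.459 in sham LN, and at 861, 278 and 1591 CPM after pontine infarction against 132, 106 and 125 in sham PN. Its sham PN libraries stood far above sham LN, and the highest levels after stroke were in the pons.

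**Figure D5:**
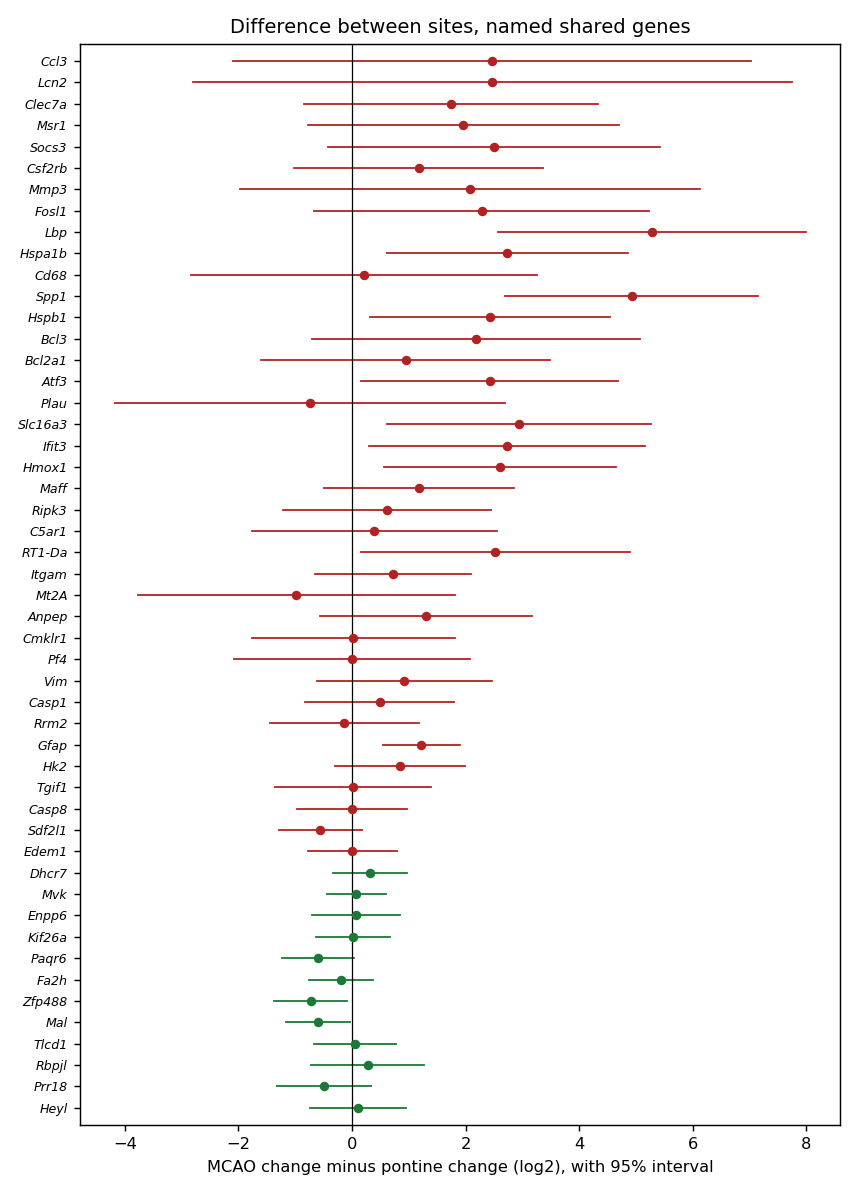
MCAO log2 change minus pontine log2 change (horizontal axis) for named shared genes whose shams held more than 3 counts at each site, with points for the estimate, lines for its 95% interval, red for risen and green for fallen genes, ordered by average change. Intervals of the fallen genes are short and lie within 2 log2 units of 0, while those of strongly risen genes such as Lcn2 and Ccl3 span more than 8 units.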

How the data were processed

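RNA-seq of rat brain was deposited by the authors as raw read counts per gene symbol in 12 libraries. HISAT2 and the rat assembly Rnor_6.0 are named per the submitters' processing notes, with no version of HISAT2, while the counting program, annotation and strand setting were not given in the sources used here. Overlapping, antisense and near-identical genes may therefore share counts. The members and the 42 gene lists were chosen with earlier results of these data known.

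Counts were fitted with edgeR 4.0.16 (R 4.3.3), filterByExpr with a minimum count of 10 and a minimum total of 15, TMM scaling, 1 mean per group, glmQLFit and glmQLFTest, two-sided, with Benjamini-Hochberg adjustment and a threshold of 0.05. The average contrast weights both sites equally. The SE is the size of the log2 change over the root of its F value, and the 95% interval of a difference uses the SEs of the sites. Library differences used log2 CPM with a prior count of 2. Groups came from the titles, and 1 MCAO column was mapped by its group code alone. No 2 libraries held the same counts. Scripts were tested on simulated data.

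Named genes were, by rule, the shared genes of largest change with at least 5 CPM (12 per direction), the 6 most even, the 5 largest per direction that passed for the average alone, genes called in opposite directions, examples of each list and fixed markers. Other names beside small counts, and Itgax, Maff, Il1rn and Aoah, were chosen after their values were seen. Alternatives were DESeq2 1.42.0 and its size factors, limma 3.58.1 (voom), other filters, a minimum change, other designs, a replicate block and leaving out each library. Promoters came from RefSeq (GRCr8), matched by symbol or synonym. Some genes are not reported here.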

Additional observations from a re-analysis of the deposited data

Results flagged for a closer look

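Crtac1, which encodes a secreted matrix protein of the cartilage acidic protein family, passed in opposite directions at the sites. It was at 131, 153 and 248 CPM after MCAO against 95.9, 96.6 and 75.4 in sham LN, and at 35.4, 46.6 and 36.8 CPM after pontine infarction against 69.2, 82.6 and 94.9 in sham PN. The MCAO libraries lay above their shams and the pontine libraries below theirs, with log2 changes of 0.99 ± 0.23 after MCAO and -1.05 ± 0.23 after pontine infarction. The difference was 2.04 on the log2 scale, with an edgeR adjusted p of 0.116, so it did not pass.

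Vash2, which encodes vasohibin 2, an enzyme that trims tubulin, showed the same pattern. It was at 5.87, 6.56 and 6.48 CPM after MCAO against 3.93, 3.85 and 3.404 in sham LN, and at 10.8, 11.3 and 5.83 CPM after pontine infarction against 18.2, 18.2 and 19.3 in sham PN. Its groups did not overlap at either site, with log2 changes of 0.76 ± 0.24 after MCAO and -0.99 ± 0.23 after pontine infarction. The difference was 1.75 on the log2 scale, with an edgeR adjusted p of 0.198, so it did not pass either. These were the 2 genes past the threshold at both sites with opposite signs, of 17008 tested.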

How the results depend on the processing

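With all 12 libraries 4688 genes passed for the average, 3163 for MCAO, 694 for pontine infarction, 0 for the difference and 445 at both sites. In that order, a minimum change of 1.5-fold left 1281, 1182, 267, 0 and 173. DESeq2 called 1738 for pontine infarction, 238 for the difference and 1122 at both sites, and limma voom 315 for pontine infarction and 159 at both sites. Without a filter on low counts 1 difference passed, and with site ignored 2098 averages passed. Leaving out 1 library moved MCAO between 1136 and 6170 (1517 without the unnumbered MCAO library), pontine infarction between 6 and 1416, the difference between 0 and 970, and both sites between 6 and 1055. Leaving out MCAO 2 and pontine infarction 3 together, chosen after the data were seen, gave 7277 for MCAO, 1612 for the difference and 812 at both sites. The average change of Crtac1, which has opposite signs at the sites, turned positive with site ignored (0.34), without MCAO 1 (0.062), MCAO 2 (0.018), pontine infarction 1 (0.0033) or sham PN 3 (0.023), and without MCAO 2 and pontine infarction 3 together (0.041). That of Vash2 did so without pontine infarction 3 (0.0054). Without pontine infarction 2 they were -0.10 and -0.20. The cause was not tested. Of 146 named genes, 145 kept direction and side of the threshold with DESeq2's size factors and 123 with limma voom, and without 1 library 0 to 20 lost their call. Calls were lost by 21 of them with limma voom, 41 with the minimum change, 43 with site ignored and 9 with 1 stroke effect for both sites.

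With the replicate number as a block within site, leaving out the unnumbered MCAO library, 2076 averages, 126 for MCAO, 101 for pontine infarction and 47 at both sites passed, and 39 of the named genes lost their call, among them Angptl4, Egr2, Scube2, Sprr1a, Hydin, Mbp and Fos. Under this block 13 of 24 interferon-stimulated and 11 of 18 antigen presentation genes rose, and 4 of 18 resting astrocyte markers fell while 0 rose. Of other lists, 8 matrix, 5 heat shock, 6 unfolded protein, 8 AP-1, 3 oxidative stress, 5 iron and 6 regeneration genes rose, and 0 striatal and 3 synaptic genes fell. Same-numbered stroke and sham libraries correlated at 0.10 and 0.04 for MCAO 1 and 2 and 0.05, 0.15 and 0.15 for pontine infarction 1 to 3 in their deviations from the group means. The numbers were not taken as pairs, although each of these stroke libraries correlated best with the sham of its own number. Whether the numbers mark pairs is not settled by these values, and fewer genes passed with the block.

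Each site rests on 3 libraries against 3, depth spans 19805815 to 40400676 counts, and genes near 0 in shams have folds that depend on single counts.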
